A study of Arabidopsis thaliana with 12 samples.

Results

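In Arabidopsis, 10 genes of jasmonate synthesis and response were followed in whole seedlings under moderate low water potential. They were LOX2 (AT3G45140), LOX3 (AT1G17420), LOX4 (AT1G72520), AOS (AT5G42650), AOC1 (AT3G25760), AOC2 (AT3G25770), OPR3 (AT2G06050), MYC2 (AT1G32640), VSP1 (AT5G24780) and VSP2 (AT5G24770). They were chosen by locus from the per-library gene tables, as 10 of 33602 genes listed. All 10 passed the filter on low counts, which left 22924 genes for testing. Jasmonate is made from linolenic acid released from chloroplast lipids. A 13-lipoxygenase (LOX) oxygenates the fatty acid, allene oxide synthase (AOS) and allene oxide cyclase (AOC) turn the hydroperoxide into the cyclopentenone OPDA, and OPDA reductase (OPR3) reduces it in the peroxisome before the side chain is shortened. The isoleucine conjugate of jasmonate binds the receptor COI1, JAZ repressors are then degraded, and the transcription factor MYC2 is freed to act, with the vegetative storage protein genes VSP1 and VSP2 among its best-known outputs in leaves.

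Poly-A RNA of Arabidopsis thaliana seedlings, accession Col-0, was sequenced in 12 libraries. The groups were a 35S:HIN1 line after stress (HIN1 stress), the same line at control (HIN1 control), wild type after stress (WT stress) and wild type at control (WT control), with 3 libraries each. Seedlings 7 days old were moved to agar at -0.7 MPa, made with polyethylene glycol, for stress, or to fresh agar at -0.25 MPa for control, and harvested 96 h later. The design asks how each genotype responded to low water potential and whether ectopic HIN1 (AT3G11290) changed the genes' levels or their response. The transgene is driven by the 35S promoter, which is active in most plant tissues, and HIN1 is represented by 1 stable line. The p-values therefore measure the spread between separate experiments of 1 line per genotype. The design text states that the same WT data were submitted with a study of another mutant, ahl10.

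Gene reads ranged from 58 M to 68.56 M per library, and log2 CPM correlated at 0.9837 to 0.9907 between libraries of a group, across genes. Levels in CPM are gene reads scaled to the TMM-adjusted library size. HIN1 itself lay between 250 and 390 CPM in the HIN1 libraries, against 21.6 to 24.5 CPM in the WT libraries. Green tissue markers (4 genes) summed to 22400 to 23200 CPM in HIN1 stress, against 18200 to 23700 CPM in HIN1 control. Their sums did not overlap in WT, at 21400 to 22500 CPM after stress and 23700 to 28700 CPM at control. Root markers (4 genes) summed to 63.9 to 72.4 CPM over all libraries, while flower markers (4 genes) stayed between 2.49 and 3.45 CPM. Guard cell markers (3 genes) summed to 26 to 35 CPM in HIN1 stress, against 40.3 to 41.8 CPM in HIN1 control. In WT they summed to 30 to 34.1 CPM after stress, against 49.6 to 56.5 CPM at control. Of these, MYB60 and KAT1 averaged lower after stress in both genotypes. FAMA averaged lower in WT only, with 15.44 ± 1.33 CPM in HIN1 stress and 14.64 ± 0.545 CPM in HIN1 control. Root hair markers (3 genes) summed to 25 to 34 CPM in WT stress, against 5.75 to 21.4 CPM in WT control, and overlapped in HIN1 (22 to 27.9 CPM in HIN1 stress and 18.8 to 23.8 CPM in HIN1 control). The part of these cell types in the stress results was not tested. WT control library 1 stood apart for touch and early wound genes. Those 7 genes (TCH2, TCH3, TCH4, ZAT10, ZAT12, WRKY40 and ERF109) summed to 1090 CPM there, against 197 and 352 CPM in the other WT control libraries. In whole seedlings, fewer cells of a type and less RNA per cell cannot be told apart.

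Low water potential raised the chloroplast lipoxygenase LOX2, the cyclase AOC2, the reductase OPR3 and both VSP genes in both genotypes. In HIN1 stress against HIN1 control, 6 of the 10 genes were called higher and 0 lower, where 14.7% of all genes tested were called higher and 12.5% lower. In WT stress against WT control, 5 of the 10 were called higher and 0 lower, with 14.9% of all genes called higher and 16.7% lower. A gene was called at an adjusted p below 0.05 in the quasi-likelihood test of edgeR, adjusted by the Benjamini-Hochberg method across the 22924 genes. The gene called in HIN1 and not in WT was AOC1. Over the 10 genes the median log2 fold change was 0.80 in HIN1 and 0.47 in WT, beside 0.007 and -0.004 over all genes. LOX3, LOX4, AOS and MYC2 were called in neither genotype. Whether stress and control libraries overlapped is given below for each gene. The share of all genes whose libraries did not overlap was not counted.

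**Figure D1:**
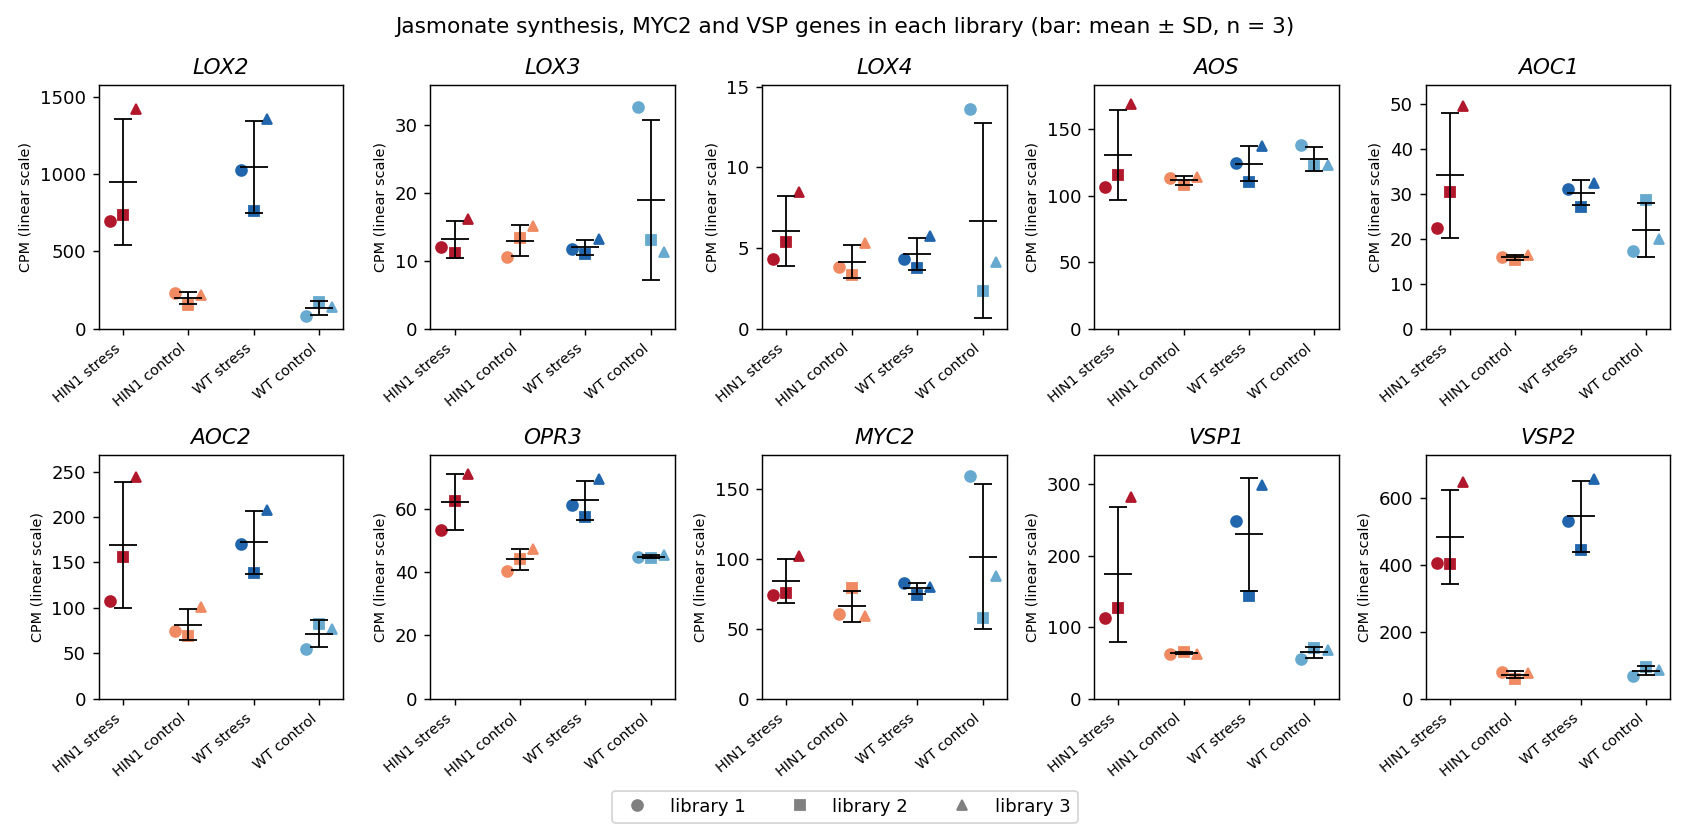
Level of each of the 10 genes in CPM (linear axis from 0) in the 12 libraries, by group, with library 1 as circles, library 2 as squares and library 3 as triangles; bars are the mean ± SD of 3 libraries. LOX2, AOC2, OPR3, VSP1 and VSP2 lie higher in every stress library than in any control library of the same genotype. The share of all genes that do so was not counted. For LOX3, LOX4 and MYC2, 1 WT control library lies far above the rest.

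LOX2 (chr3:16525245-16529352 in TAIR10.1, plus strand) encodes a 13-lipoxygenase of leaf chloroplasts. It measured 698.4, 733.7 and 1423 CPM in HIN1 stress, against 229.2, 153.7 and 215.1 CPM in HIN1 control. In WT stress it measured 1026, 763.5 and 1359 CPM, against 81.97, 171.6 and 143.3 CPM in WT control. Stress and control libraries did not overlap in either genotype, and library 3 was the highest of each stress group. The log2 fold change was 2.26 ± 0.34 (SE) in HIN1 (4.77-fold, adjusted p = 0.000583) and 2.99 ± 0.35 in WT (7.93-fold, adjusted p = 8.33e-05). Leaving out any 1 of the 12 libraries kept it between 1.85 and 2.44 in HIN1 and between 2.75 and 3.23 in WT.

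The related lipoxygenase genes LOX3 (chr1:5977323-5981521, plus strand) and LOX4 (chr1:27308513-27312756, plus strand) were low and not called. Their coding sequences share 80.6% of aligned bases, and each shares 60.4% with LOX2. LOX3 measured 11.99, 11.19 and 16.16 CPM in HIN1 stress, against 10.47, 13.28 and 15.06 CPM in HIN1 control. In WT stress LOX3 measured 11.7, 10.99 and 13.17 CPM, against 32.55, 13.04 and 11.27 CPM in WT control. The WT control value of 32.55 CPM came from library 1 and was the highest of all 12. LOX4 measured 4.315, 5.378 and 8.474 CPM in HIN1 stress, against 3.842, 3.328 and 5.305 CPM in HIN1 control. In WT stress LOX4 measured 4.345, 3.771 and 5.727 CPM, against 13.61, 2.342 and 4.125 CPM in WT control. Groups overlapped for both genes in both genotypes, and WT control library 1 again held the highest LOX4. The log2 fold change of LOX3 was 0.02 ± 0.33 in HIN1 and -0.67 ± 0.33 in WT (adjusted p = 0.973 and 0.146), and that of LOX4 was 0.54 ± 0.51 and -0.54 ± 0.51 (adjusted p = 0.472 and 0.451). Without WT control library 1, LOX3 stood at -0.01 and LOX4 at 0.52 in WT, and without WT control library 3, LOX3 was called lower at -0.93 (adjusted p = 0.0369).

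LOX2 also made up a larger share of the 13-lipoxygenase transcripts after stress. On the authors' RPKM, which corrects for length, LOX2 held 93.3% ± 1.6 of the summed level of LOX2, LOX3, LOX4 and LOX6 in HIN1 stress and 75% ± 4.2 in HIN1 control (SD, n = 3). It held 94.8% ± 1.1 in WT stress and 64.4% ± 14 in WT control. The lowest share was 48.7%, in WT control library 1, and stress and control libraries did not overlap.

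AOS (chr5:17097564-17099595, minus strand, 1 exon) encodes the single allene oxide synthase of the species. It measured 106.6, 116 and 169.5 CPM in HIN1 stress, against 113.6, 108 and 114.1 CPM in HIN1 control. The WT stress libraries held 125, 110.8 and 137.2 CPM, against 138.3, 122.2 and 123.3 CPM in WT control. Stress and control overlapped in both genotypes, and HIN1 stress library 3 stood above all others. The log2 fold change was 0.22 in HIN1 (95% interval -0.09 to 0.54, adjusted p = 0.281) and -0.04 in WT (-0.36 to 0.27, adjusted p = 0.856).

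The cyclase genes AOC1 (chr3:9403779-9405338) and AOC2 (chr3:9406669-9408071) lie in tandem with AOC3 on the plus strand of chromosome 3. The first pair is separated by 1330 bases and the second by 1088 bases, with 0 annotated genes between. AOC1 and AOC2 share 90.3% of aligned coding bases, so their reads could be split between them in counting. The deposited share of reads mapping to several sites was 0 for each of the 10 genes in every library. AOC2 measured 107.4, 156.4 and 243.5 CPM in HIN1 stress, against 75.03, 68.58 and 101.4 CPM in HIN1 control. WT stress libraries stood at 170.2, 138.3 and 207.2 CPM, against 54.77, 82.57 and 77.01 CPM in WT control. Every stress library exceeded every control library of its genotype, with HIN1 stress library 1 only just above HIN1 control library 3. The log2 fold change was 1.05 ± 0.27 in HIN1 (adjusted p = 0.0142) and 1.27 ± 0.27 in WT (adjusted p = 0.00466). The HIN1 call was lost without HIN1 control library 1 (adjusted p = 0.0514), HIN1 control library 2 (adjusted p = 0.0591) or HIN1 stress library 3 (log2 fold change 0.69, adjusted p = 0.0591).

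AOC1 was lower than AOC2 per length, at 31.9 ± 12.3 and 161 ± 62.5 RPKM in HIN1 stress. In CPM it measured 22.46, 30.46 and 49.44 CPM in HIN1 stress, against 15.87, 15.37 and 16.49 CPM in HIN1 control. WT stress gave 31.09, 27.14 and 32.45 CPM, against 17.28, 28.64 and 19.93 CPM in WT control. The HIN1 groups did not overlap, whereas WT control library 2 lay above WT stress library 2. AOC1 rose by 1.10 ± 0.25 on the log2 scale in HIN1 (2.14-fold, adjusted p = 0.00663), or by 0.73 without HIN1 stress library 3. In WT its log2 fold change was 0.46 ± 0.24 (adjusted p = 0.174), and the authors' deposited table gives 0.44 with an adjusted p of 0.0336. The difference between those responses was 0.64 (95% interval -0.12 to 1.39, adjusted p = 0.589), so AOC1 was not shown to respond differently in the genotypes.

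AOC2 held 60.7% ± 5.7 of the summed RPKM of the cyclase genes AOC1 to AOC4 in HIN1 stress and 53.8% ± 5.6 in HIN1 control. The share was 63.4% ± 3.6 in WT stress and 49.1% ± 4.9 in WT control. Stress and control shares overlapped in HIN1 and did not overlap in WT. AOC4 rose in both genotypes, by 0.45 in HIN1 and 0.54 in WT on the log2 scale (adjusted p = 0.000159 and 3.94e-05), while AOC3 was called in neither (0.32 and 0.18, adjusted p = 0.244 and 0.512).

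**Figure D2:**
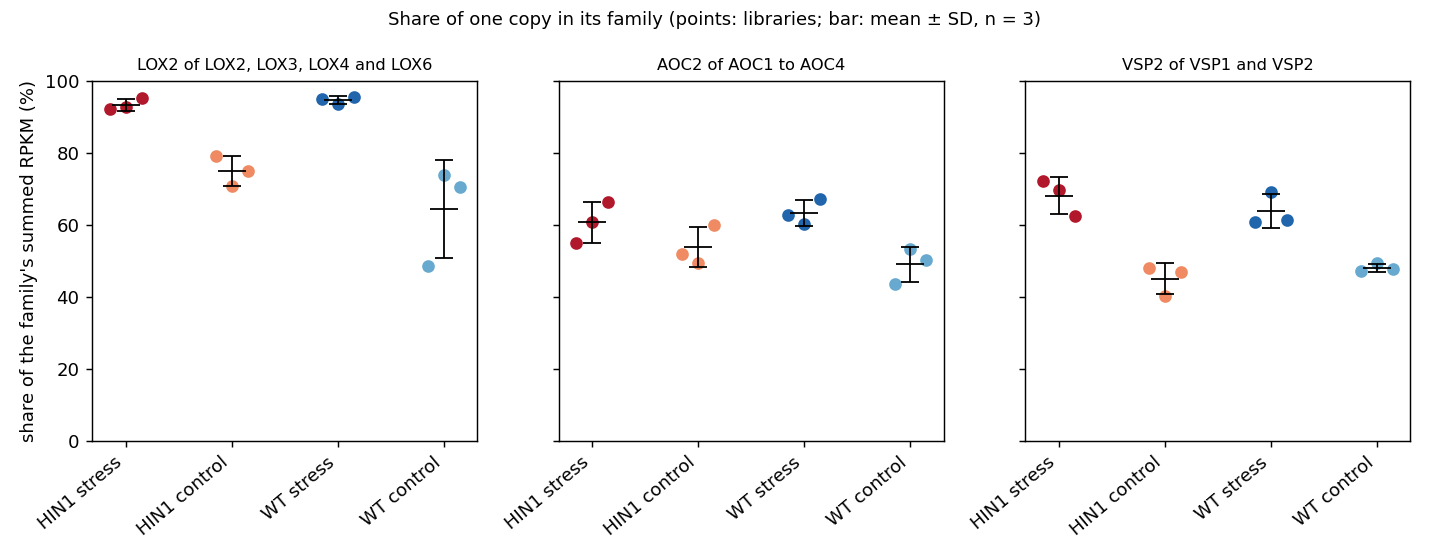
Share of LOX2, AOC2 and VSP2 in the summed RPKM of their gene families, in percent, for each library, with the mean ± SD of 3 libraries. The LOX2 share averages 93.3% in HIN1 stress and 75% in HIN1 control, and the VSP2 share averages 68.1% and 45.1% in the same groups.

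OPR3 (chr2:2359114-2362375, minus strand) encodes the peroxisomal OPDA reductase. It measured 53.31, 62.46 and 70.94 CPM in HIN1 stress, against 40.41, 44.25 and 47.26 CPM in HIN1 control. For WT stress the values were 61.14, 57.52 and 69.53 CPM, against 44.7, 44.55 and 45.39 CPM in WT control. Stress and control did not overlap in either genotype, and the WT control libraries were the tightest of any group. The rise was small and even, at 0.50 ± 0.10 in HIN1 (1.42-fold, adjusted p = 0.00343) and 0.48 ± 0.10 in WT (1.4-fold, adjusted p = 0.00372).

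MYC2 (chr1:11798119-11801407, minus strand, 1 exon) encodes the bHLH factor that acts as the main switch of the wound branch of jasmonate signalling. It measured 73.97, 75.44 and 102.2 CPM in HIN1 stress, against 60.47, 78.88 and 58.77 CPM in HIN1 control. The WT stress libraries had 82.59, 74.26 and 79.39 CPM, against 158.6, 57.89 and 87.26 CPM in WT control. WT control library 1 held the highest value and WT control library 2 the lowest, so the WT stress libraries lay within the range of their controls. The log2 fold change was 0.34 ± 0.28 in HIN1 (adjusted p = 0.403) and -0.36 ± 0.28 in WT (adjusted p = 0.354). Without WT control library 1, the WT value was 0.13. Another annotated gene, AT1G32630, lies on the opposite strand, and its span, introns included, covers 98.5% of the MYC2 span. Its counted length was 0.869 kb, against 2.179 kb for MYC2, and the overlap of exons was not measured. AT1G32630 held 4.94 to 6.98 CPM over all libraries. Whether the authors counted by strand is not given in the sources used here, so MYC2 reads could include reads of that gene.

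VSP2 (chr5:8500468-8502224) and VSP1 (chr5:8507590-8509201) are neighbours on the minus strand of chromosome 5, separated by 5365 bases with 0 annotated genes between, and share 90.4% of aligned coding bases. Both encode vegetative storage proteins with acid phosphatase activity, which in leaves are textbook markers of jasmonate action. VSP2 measured 404.2, 401.3 and 646 CPM in HIN1 stress, against 79.79, 60.33 and 76.57 CPM in HIN1 control. WT stress gave 531.5, 445.1 and 656.2 CPM, against 68.36, 94.57 and 86 CPM in WT control. Stress and control libraries lay far apart in both genotypes. VSP2 rose by 2.74 ± 0.22 in HIN1 (6.7-fold, adjusted p = 7.07e-06) and by 2.71 ± 0.22 in WT (6.56-fold, adjusted p = 5.39e-06), the lowest adjusted p of the 10 genes in each genotype.

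VSP1 measured 112.8, 126.3 and 282 CPM in HIN1 stress, against 62.51, 65.06 and 62.67 CPM in HIN1 control. WT stress libraries reached 247.7, 143.7 and 297.9 CPM, against 55.29, 70.2 and 68.43 CPM in WT control. Stress and control did not overlap, although the stress libraries spread 2.5-fold in HIN1 and 2.07-fold in WT. VSP1 rose by 1.45 ± 0.33 in HIN1 (adjusted p = 0.00653) and by 1.83 ± 0.33 in WT (adjusted p = 0.00153). Without HIN1 stress library 3 the HIN1 value was 0.92 (adjusted p at most 0.0249 over all single omissions). VSP2 held 68.1% ± 5.1 of the summed RPKM of the pair in HIN1 stress and 45.1% ± 4.3 in HIN1 control. It held 63.9% ± 4.6 in WT stress and 48.1% ± 1.1 in WT control. The share was below 50% in each control library and above 60% in each stress library.

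**Figure D3:**
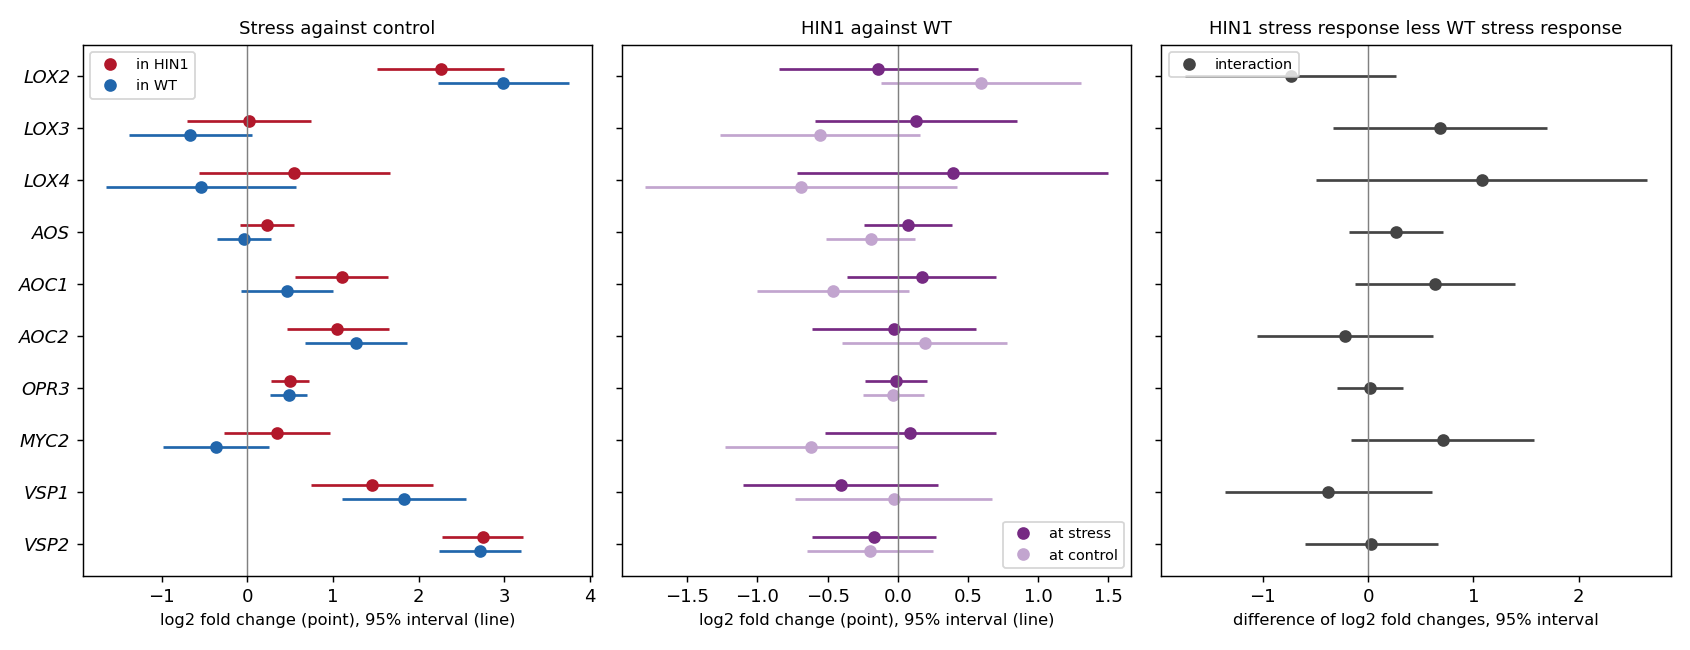
Log2 fold change of each gene with its 95% interval for stress against control in HIN1 and WT (left), HIN1 against WT at stress and at control (middle), and the difference of the stress responses (right). The intervals of LOX2, AOC2, OPR3, VSP1 and VSP2 lie above 0 in both genotypes, and the 10 intervals of the difference of responses all include 0.

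The order of the genes by RPKM changed with stress. In HIN1 stress LOX2 averaged 313 ± 127 and VSP2 300.2 ± 79.9 RPKM, followed by AOC2 at 161 and VSP1 at 148. In HIN1 control the same places went to AOC2 at 77.7 ± 14, LOX2 at 65.7 ± 12.5, AOS at 58.2 ± 1.34 and VSP1 at 54.3 ± 2.6 RPKM. LOX2 and VSP2 overlapped in HIN1 stress, as did AOC2 with VSP1, while AOC2, LOX2 and AOS formed a run of overlapping neighbours in HIN1 control. In WT stress the order began with LOX2 at 347 ± 95.1, VSP2 at 339 ± 62.6, VSP1 at 197 and AOC2 at 165 RPKM, with overlap within the first pair and within the second. In WT control AOC2 at 65.5 ± 14.2 and AOS at 63.7 ± 3.77 RPKM overlapped, and VSP1, VSP2, LOX2, MYC2, OPR3 and AOC1 each overlapped the next, between 53.1 and 19.7 RPKM. LOX3 and LOX4 were the lowest in each of the 4 groups, at 3.8 to 5.71 and 1.27 to 1.96 RPKM.

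None of the 10 genes was called between the genotypes. At control, 0 of 10 genes were called in HIN1 control against WT control, where 2.76% of all genes were called. At stress, 0 of 10 were called in HIN1 stress against WT stress, where 3.42% of all genes were called. For the difference of the stress responses, 0 of 10 were called, where 0.157% of all genes were called. DESeq2 called 0 of 10 in each of these comparisons as well. At an unadjusted p under 0.05, 1 gene passed at control, 0 at stress and 0 for the difference of responses, where 19%, 10.6% and 9.17% of all genes passed.

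The gene with that low unadjusted p at control was MYC2, at 60.47, 78.88 and 58.77 CPM in HIN1 control, against 158.6, 57.89 and 87.26 CPM in WT control (log2 fold change -0.62, unadjusted p = 0.0495, adjusted p = 0.262). The groups overlapped. AOS and AOC1 stood at -0.19 (95% interval -0.51 to 0.12) and -0.46 (-1 to 0.08) in the same comparison, and neither was called. Their HIN1 control libraries all lay below their WT control libraries, and the share of all genes separated in this way was not counted. LOX2 was 0.59 higher in HIN1 control than in WT control, with a 95% interval of -0.12 to 1.31. After stress the log2 differences of HIN1 from WT ranged from -0.40 for VSP1 to 0.39 for LOX4. The groups overlapped there for each of the 10 genes, and the share of all genes that overlapped was not counted. The intervals at stress were widest for LOX4 (-0.72 to 1.5) and narrowest for OPR3 (-0.23 to 0.21). Differences in response lay between -0.73 for LOX2 (-1.74 to 0.27) and 1.08 for LOX4 (-0.49 to 2.65). For VSP2 the responses differed by 0.03, with an interval of -0.60 to 0.66, and for OPR3 by 0.02 (-0.29 to 0.33).

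The values of LOX3, LOX4 and MYC2 depended on a single library. Without WT control library 1, their differences in response were 0.02, 0.01 and 0.21, against 0.69, 1.08 and 0.71 with all 12. In that library LOX3, LOX4, MYC2 and AOS were the highest of their group, and LOX2, AOC1, AOC2, VSP1 and VSP2 the lowest. The touch and early wound genes were high in the same library: WRKY40 measured 133 CPM there and 4.39 and 24.7 CPM in the other WT control libraries, and TCH4 206, 23.3 and 49.9 CPM. In HIN1 stress against HIN1 control, 0 of those 7 genes were called (median log2 fold change -0.53), where 14.7% of all genes were called higher and 12.5% lower. In WT stress against WT control, 7 of 7 were called lower (median -2.94), where 16.7% of all genes were. For the difference of those responses 0 of 7 were called (median 2.41), where 0.157% of all genes were. Without WT control library 1, 3 of 7 were called lower in WT. In HIN1 stress the 7 genes summed to 75.8, 98.8 and 208 CPM in libraries 1, 2 and 3, against 154, 293 and 188 CPM in HIN1 control. The part of touch and early wound response in the results for LOX3, LOX4 and MYC2 was not tested.

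Within the stress groups most members were highest in the same library. Library 3 was the highest for 10 of 10 genes in HIN1 stress and for 9 of 10 in WT stress, MYC2 being the exception. Among the controls, library 3 was the highest for 6 of 10 genes in HIN1 control and for 1 of 10 in WT control. The share of all genes highest in library 3 was not counted. In HIN1 stress, library 3 exceeded the lowest library by 2.5-fold for VSP1, 2.27-fold for AOC2, 2.2-fold for AOC1 and 2.04-fold for LOX2. In WT stress the same ratio, against library 2, was 2.07-fold for VSP1, 1.78-fold for LOX2 and 1.5-fold for AOC2. Reads of chloroplast genes were also highest in libraries 3, at 0.408% to 0.75% of gene reads, against 0.141% to 0.263% in the libraries numbered 1 and 2. Reads mapping to several sites were highest there too, at 1.84% to 2.6%, against 1.33% to 1.58%. With libraries 1 and 2 alone, a setting added after the data were seen, 5 genes were called in HIN1 and 5 in WT. AOC1 in HIN1 was the call lost (0.76, adjusted p = 0.0615). The part of the chloroplast and multi-site reads in the spread was not tested.

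**Figure D4:**
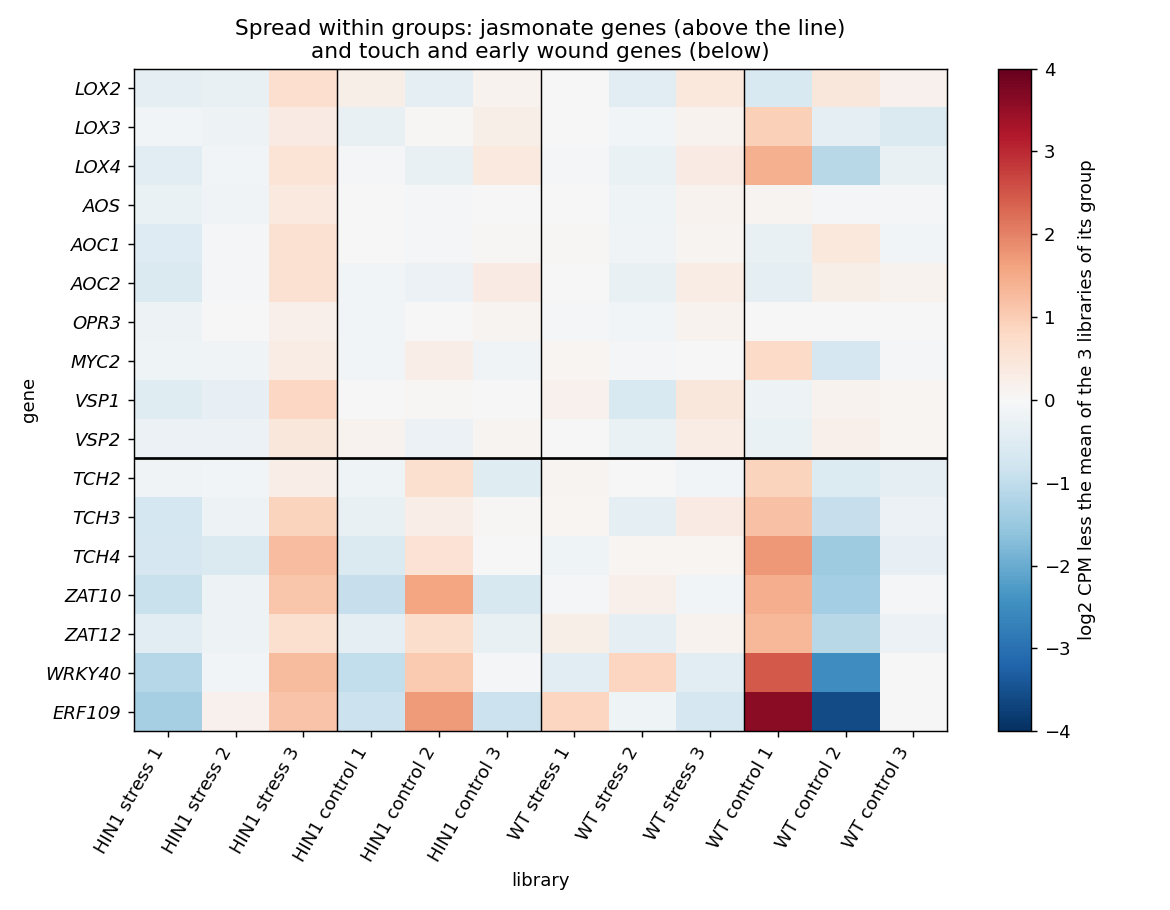
Deviation of log2 CPM from the mean of the 3 libraries of its group for the 10 genes (above the line) and 7 touch and early wound genes (below), by library; red is higher and blue lower. HIN1 stress library 3 is red for all 10 genes, and WT control library 1 is red for LOX3, LOX4, MYC2 and the 7 touch and early wound genes.

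Genes of the same route outside the 10 were taken from lists made with earlier results of these data known. Of 15 genes of lipid release, desaturation, other lipoxygenase and cyclase copies and peroxisomal side-chain shortening, 13 were tested. In HIN1, 5 rose and 0 fell, and in WT, 5 rose and 1 fell, with median log2 fold changes of 0.32 and 0.04. Over all genes 14.7% rose and 12.5% fell in HIN1, and 14.9% rose and 16.7% fell in WT. The 5 risers in both were AOC4 and the beta-oxidation genes ACX1, AIM1, MFP2 and KAT2 (AT2G33150), which encode an acyl-CoA oxidase, a pair of multifunctional proteins and a thiolase. AIM1, for example, averaged 176.6 ± 14.7 CPM in HIN1 stress and 128.5 ± 9.11 CPM in HIN1 control, and KAT2 averaged 274.9 ± 9.7 CPM in WT stress and 201.3 ± 4.78 CPM in WT control. Their log2 fold changes stayed between 0.38 and 0.46 in HIN1 and between 0.43 and 0.54 in WT, near that of OPR3. These enzymes also serve general fatty acid breakdown. The lipases DAD1 and DGL did not pass the filter, with at most 0.0922 CPM as a group mean.

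Paralogs of the members outside jasmonate synthesis moved in both directions. Transcripts of the hydroperoxide lyase gene HPL1 rose by 1.67 in HIN1 and 2.20 in WT (adjusted p = 0.000154 and 1.99e-05). OPR1, a reductase that is not the one of jasmonate synthesis, fell by 0.59 in HIN1 and 0.75 in WT (adjusted p = 0.00162 and 0.000264). Of these 5 paralogs, 1 rose and 2 fell in HIN1, where 14.7% of all genes rose and 12.5% fell. In WT, 2 rose and 2 fell, where 14.9% of all genes rose and 16.7% fell. LOX1, a 9-lipoxygenase, was the only gene of the jasmonate lists called between genotypes at control, at 144.6 ± 4.94 CPM in HIN1 control and 93.88 ± 5.69 CPM in WT control (log2 fold change 0.62, adjusted p = 0.00269).

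Among 9 genes of perception and transcription, 1 was called higher in each genotype and 0 lower, where 14.7% of all genes were called higher in HIN1 and 14.9% in WT. It was NIG1 (AT5G46830), a bHLH gene also known as MYC5 and related to MYC2, at 3.28 ± 0.263 CPM in HIN1 stress and 0.633 ± 0.123 CPM in HIN1 control, and at 4.12 ± 0.874 CPM in WT stress and 0.486 ± 0.235 CPM in WT control. NIG1 rose by 2.37 in HIN1 and 3.07 in WT (adjusted p = 0.000124 and 1.99e-05). MYC3 and MYC4, other relatives of MYC2, had log2 fold changes of 0.02 and -0.16 in HIN1 and of -0.05 and -0.18 in WT, with adjusted p from 0.155 to 0.882.

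Of 13 JAZ genes, which encode the repressors and are themselves induced by jasmonate, 3 rose and 1 fell in HIN1, and 2 rose and 2 fell in WT. Read against the 14.7% higher and 12.5% lower of all genes in HIN1 and the 14.9% and 16.7% in WT, these WT counts lay at the background. JAZ12 and JAZ10 rose in both, by 0.38 and 0.60 in HIN1 and by 0.25 and 0.61 in WT. JAZ7 and JAZ8 fell in WT, by 1.47 and 2.00 (adjusted p = 0.0318 and 0.023), and without WT control library 1 they stood at -0.94 and -1.22 and were not called (adjusted p = 0.163 and 0.135). JAZ calls were unsteady: over the 12 fits that each left out 1 library, 1 to 4 rose in HIN1 and 0 to 3 in WT. JAZ4 was lower in HIN1 stress than in WT stress, at 1.79 ± 0.398 and 3.23 ± 0.419 CPM (log2 fold change -0.85, adjusted p = 0.0199). That call was lost without HIN1 stress library 1 (adjusted p = 0.0571), WT stress library 1 (adjusted p = 0.0883) or WT stress library 2 (adjusted p = 0.0849).

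Of 12 genes that conjugate or turn over jasmonate, 11 were tested, and 3 rose and 1 fell in each genotype, where 14.7% of all genes rose and 12.5% fell in HIN1 and 14.9% rose and 16.7% fell in WT. ILL6, a hydrolase of the conjugate, rose by 0.47 in HIN1 and 0.38 in WT. The oxygenase genes AT3G11180 and JRG21 rose at very low levels, with group means of 0.618 and 1.77 CPM in HIN1 stress and 0.172 and 0.707 CPM in HIN1 control. CYP94B1, which oxidises the conjugate, fell by 0.41 in HIN1 and 0.47 in WT (adjusted p = 0.0384 and 0.0194). In HIN1, leaving out HIN1 control library 2 or HIN1 stress library 3 left 0 calls in this list. In WT, leaving out WT stress library 1 or WT stress library 3 left 1 gene higher and 0 lower.

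Other genes known as outputs of the MYC2 branch were mostly higher after stress, as the VSP genes were. The part of MYC2 in their rise was not tested. Of 8 such genes, 6 rose and 0 fell in each genotype, with median log2 fold changes of 2.13 in HIN1 and 2.15 in WT. Beside them, 14.7% of all genes rose and 12.5% fell in HIN1, and 14.9% rose and 16.7% fell in WT. This list too was made with earlier results of these data known. CORI3, a jasmonate-responsive C-S lyase, averaged 115.9 ± 48.9 CPM in HIN1 stress and 17.65 ± 1.88 CPM in HIN1 control. CORI3 averaged 127.6 ± 17 CPM in WT stress and 19 ± 7.47 CPM in WT control, and rose by 2.72 and 2.75 (adjusted p = 0.000105 and 7.61e-05). The ER body glucosidase BGLU18 rose by 2.86 and 2.93, and its neighbour TSA1 by 1.55 and 1.55. The thionin THI2.1 rose by 5.10 in HIN1 and 6.32 in WT on the log2 scale, with stress libraries between 3.97 and 28.6 CPM and each control library below 1 CPM. JR1 and TAT3 were the 2 not called, at 0.30 and -0.97 in HIN1 and 0.18 and 0.13 in WT. Over the 12 fits that each left out 1 library, 5 or 6 of the 8 rose in HIN1 and 6 in WT.

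**Figure D5:**
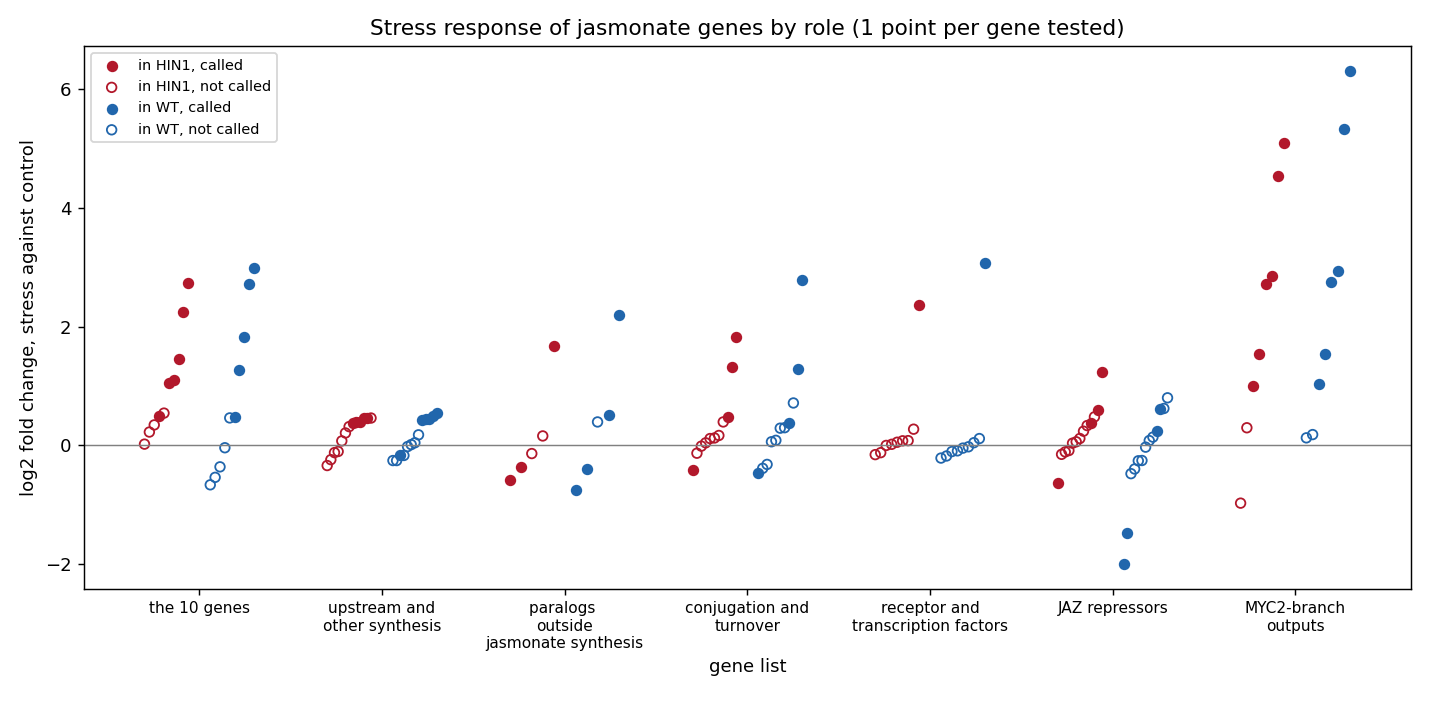
Log2 fold change of stress against control in HIN1 (left of each pair, red) and WT (right, blue) for each gene tested, by role; filled points are called and open points are not. The 6 called MYC2-branch outputs reach 5.10 in HIN1 and 6.32 in WT, while 1 of 9 receptor and transcription factor genes is called.

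The genes most like the members were sought over all 12 libraries by the root-mean-square difference of log2 CPM after each gene's own mean was subtracted. CORI3 was nearest to LOX2 (0.27) and to VSP2 (0.20). JAL23 (0.31) and BGLU18 (0.35) came next for LOX2, and the lectin gene AT1G52000 (0.22) and MBP2 (0.23) for VSP2. AOS and MYC2, which varied less (SD of 0.19 and 0.40 on the log2 scale, against 1.44 for LOX2 and VSP2), had other neighbours. Those of AOS were AT4G28300, GIF3 and ARA12 (0.09 to 0.10). Those of MYC2 were AT3G16510 (0.09) and the kinase genes AT4G02410 (0.11) and AT5G47070 (0.13).

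The 250 bases upstream of the annotated start of each gene were searched on both strands in the TAIR10.1 reference for CACGTG, the G-box that MYC2 is known to bind, and for the related AACGTG. The G-box lay in 1 of 10 members and in 6.49% of 27443 promoters of the same length, and AACGTG in 4 of 10 and in 7.54%. No match to one hexamer is also a match to the other. AACGTG lay 94 bases before the start of LOX4, 138 before AOC1, 115 before MYC2 and 170 before VSP1, and CACGTG 6 bases before AOS. LOX2, LOX3, AOC2, OPR3 and VSP2 held neither in this window. For AOS and MYC2, of 1 exon each, the counted length (1.801 and 2.179 kb) was shorter than the annotated span. The starts of the counted gene models may therefore differ from those used here. The neighbouring copies of the cyclase and VSP genes are shown for comparison, with AOS, which held the G-box. All run 5' to 3' on the strand of the gene, with capitals at a hexamer (AACGTG on the other strand reads CACGTT). AOC1 is chr3:9403529-9403778, AOC2 is chr3:9406419-9406668, VSP1 is chr5:8509202-8509451, VSP2 is chr5:8502225-8502474 and AOS is chr5:17099596-17099845.
AOC1: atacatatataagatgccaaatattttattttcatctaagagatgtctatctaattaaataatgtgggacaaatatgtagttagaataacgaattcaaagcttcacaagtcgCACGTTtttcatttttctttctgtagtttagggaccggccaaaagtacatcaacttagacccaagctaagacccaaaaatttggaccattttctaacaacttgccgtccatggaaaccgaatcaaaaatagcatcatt
AOC2: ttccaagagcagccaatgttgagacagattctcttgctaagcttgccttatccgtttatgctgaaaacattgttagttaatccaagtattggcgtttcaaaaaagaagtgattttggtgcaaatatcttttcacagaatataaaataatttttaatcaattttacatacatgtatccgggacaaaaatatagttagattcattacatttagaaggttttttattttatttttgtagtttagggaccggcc
VSP1: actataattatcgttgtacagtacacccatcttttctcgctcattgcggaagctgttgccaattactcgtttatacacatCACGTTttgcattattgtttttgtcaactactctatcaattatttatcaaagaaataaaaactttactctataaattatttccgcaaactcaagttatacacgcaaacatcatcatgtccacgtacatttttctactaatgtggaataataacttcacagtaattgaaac
VSP2: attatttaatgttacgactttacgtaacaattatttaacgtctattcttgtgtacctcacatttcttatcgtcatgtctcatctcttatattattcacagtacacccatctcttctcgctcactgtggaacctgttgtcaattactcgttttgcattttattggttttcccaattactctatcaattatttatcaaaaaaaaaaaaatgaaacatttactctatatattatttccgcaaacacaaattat
AOS: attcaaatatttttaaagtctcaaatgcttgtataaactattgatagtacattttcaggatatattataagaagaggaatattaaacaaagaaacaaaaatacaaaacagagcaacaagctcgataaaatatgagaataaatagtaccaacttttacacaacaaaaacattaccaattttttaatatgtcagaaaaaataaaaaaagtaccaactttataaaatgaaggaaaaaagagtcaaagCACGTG
The cyclase pair shared a run of 19 bases, tgtagtttagggaccggcc, which began 117 bases before the start of AOC1 and 19 before that of AOC2. The VSP pair shared a run of 23 bases, tactctatcaattatttatcaaa, which began 142 bases before the start of VSP1 and 76 before that of VSP2. AOC2 and VSP2, which held neither hexamer in the window, were the copies of these pairs with the higher RPKM in each stress library. In each control library AOC2 was again the higher copy, whereas VSP2 was the lower, at 40.2% to 49.4% of its pair. The part of the hexamers in these levels was not tested.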

How the data were processed

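Whole-seedling poly-A RNA was read from stranded libraries, per the labels' protocols. The submitters' processing notes list TAIR10 as the build, and as tools Trimmomatic 0.35, Bowtie2, DESeq2, CASAVA and bcl2fastq 1.8.4. How reads were counted, and whether by strand, is not given in the sources used here. Reads per gene, as the authors counted them, are expected counts (fractional for some genes), per the file headers. The deposited RPKM values were used for levels between genes, and the deposited fraction of multi-site reads to mark shared genes. The authors' comparison tables hold a log2 fold change, its standard error (a score with no fixed range) and an adjusted p-value, per the file headers.

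Counts were rounded and fitted in R 4.3.3 with edgeR 4.0.16 (TMM, filterByExpr with a minimum count of 10, 1 coefficient per group, glmQLFTest, two-sided, 8 residual degrees of freedom, biological coefficient of variation 13.04%). Benjamini-Hochberg adjustment ran over 22924 genes. Every adjusted p is from this test unless another tool is named. SEs are approximate: the size of the log2 fold change over the square root of its F statistic. The script was tested on data simulated for WT stress against WT control only, with the same dispersion for all genes. The genotype comparisons and the interaction were not simulated. Alternatives were RLE scaling, DESeq2 1.42.0, no filter, reads at single sites, a replicate block, only the groups compared, and each library left out. Members and lists were chosen with earlier results of these data known. All 10 members are named, and of each list up to 4 called genes by adjusted p, or 2 of highest mean. Exceptions named after seeing values are ACX1, MYC3, MYC4, AOC3, DAD1, DGL, AT1G32630, JR1 and TAT3. Upstream windows came from the RefSeq TAIR10.1 genome, read with Biopython 1.88.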

Additional observations from a re-analysis of the deposited data

How the results depend on the processing

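Counts of called members moved little. Over the alternatives, 5 or 6 of 10 were called in HIN1 stress against HIN1 control, 5 or 6 in WT stress against WT control, and 0 in each genotype comparison and in the interaction. Of the members' values under alternatives, 893 kept direction and side of the threshold, 42 changed sign, 4 lost a call and 1 gained one. Each sign change was in an uncalled value. The labels do not say that a replicate number marks a shared batch, and the correlations of same-numbered deviations across genes ran from -0.11 to 0.195, so the numbers were not taken as pairs, although libraries 3 shared high chloroplast and multi-site reads. With the replicate block, 5, 6, 0, 0 and 0 members were called (WT stress response, HIN1 stress response, HIN1 against WT at control, at stress, interaction), and 7330, 6322, 540, 725 and 27 genes. 

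For HIN1 control against WT control, 633 genes were called, against 1474 by DESeq2, 300 with only those groups, 1784 with libraries 1 and 2, and 348 to 2288 with 1 library left out. For HIN1 stress against WT stress, 785 were called and 378 with libraries 1 and 2. For the interaction, 36 were called, 205 by DESeq2, 8 with libraries 1 and 2, and 12 to 238 with 1 library left out. The cause of these shifts was not tested.

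With 1 library left out, values that changed sign ranged as follows. In WT, LOX4 ran from -0.93 to 0.52, AOS from -0.11 to 0.035 and MYC2 from -0.63 to 0.13. In HIN1, LOX3 ran from -0.16 to 0.14 and AOS from -0.008 to 0.35. In HIN1 control against WT control, LOX3 ran from -0.82 to 0.10, LOX4 from -1.08 to 0.37, OPR3 from -0.069 to 0.028 and VSP1 from -0.11 to 0.048. In HIN1 stress against WT stress, LOX2 ran from -0.55 to 0.087, LOX3 from -0.045 to 0.24, AOS from -0.16 to 0.20, AOC1 from -0.19 to 0.40, AOC2 from -0.38 to 0.22, OPR3 from -0.12 to 0.088 and MYC2 from -0.076 to 0.17. In the interaction, AOC2 ran from -0.58 to 0.025, OPR3 from -0.086 to 0.12 and VSP2 from -0.23 to 0.18. With libraries 1 and 2, LOX3 in HIN1 was -0.039, VSP1 in HIN1 control against WT control 0.044, and AOS, AOC1 and MYC2 in HIN1 stress against WT stress -0.09, -0.144 and -0.076. In the same setting VSP2 in the interaction was -0.086. With no filter OPR3 in the interaction was -0.001.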
